A study of Mus musculus with 4 samples.

Results

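Chromatin remodelers, histone deacetylases and bromodomain proteins were followed in mouse embryonic stem cells in which the long noncoding RNA Cyrano had been knocked down. Members were taken by symbol: every row starting with Smarc, every row starting with Arid, Chd, Hdac or Brd followed by a number, and 11 further remodeler and NuRD genes. This gave 63 of 23366 rows, of which 62 are genes of the families named and 1, Smarca5-ps, is a processed copy of Smarca5 that is described apart. R1 cells, of 129X1 x 129S1 origin, grew on gelatin with serum, serum replacement and the cytokine LIF. The 2 knockdown libraries came from cells transfected with a short hairpin RNA against Cyrano and the 2 control libraries from cells with a non-targeting hairpin, both in the same vector with mCherry and puromycin markers. Cells that had taken up the vector were selected with puromycin or sorted; the labels name both routes, and a pair of RNA kits, without saying which served a given library.

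Remodelers are ATP-driven machines that slide, evict or exchange nucleosomes. In embryonic stem cells the SWI/SNF complex has a particular subunit makeup, esBAF, built on the ATPase Smarca4 with Smarcc1 and Arid1a, and the NuRD complex joins the ATPase Chd4 to the histone deacetylases Hdac1 and Hdac2. Deacetylases remove acetyl groups from histones and other proteins, and bromodomains bind acetylated lysines. Loss of Mbd3, a NuRD subunit, is known to let stem cells persist without LIF, while Chd1 and the p400 ATPase (Ep400) are known to be needed for normal self-renewal.

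The counts over genes ran from 20761783 to 22321102 in the knockdown libraries and from 16854403 to 19138196 in the control libraries. Cyrano, listed as 1700020I14Rik, had 3.99 and 3.16 CPM (read counts over TMM-scaled library sizes) in the knockdown libraries, against 24.8 and 15.1 CPM in the controls. Its log2 fold change was -2.48 (edgeR adjusted p = 0.0070). That call was lost without control library 1 (adjusted p = 0.12) or control library 2 (0.057). Over all genes edgeR called 5 of 13199 higher (0.0379%) and 6 lower (0.0455%), and leaving out a library gave between 0 and 191 calls in all. The 6 stem cell markers listed were present in every library, at a summed 3443 and 3304 CPM in the knockdown libraries and 3583 and 3995 CPM in the controls. Of the 6, 4 were lower in both knockdown libraries than in either control, as were 21.3% of all genes tested. Sox2 went the other way, at 487 and 436 CPM in the knockdown libraries, against 402 and 413 CPM in the controls, and Utf1 overlapped. Of 5 fibroblast genes, Postn and Lum were at 0 in every library, and the list summed to 49.3 and 22.1 CPM in the knockdown libraries and 40.9 and 24.1 CPM in the controls, most of it Thy1. Primitive endoderm markers summed to 131 and 173 CPM in the knockdown libraries, against 73.5 and 95.9 CPM in the controls. All 5 were higher in both knockdown libraries, as were 22.3% of all genes tested. For Sox7 the groups were apart by only 12.6 against 12.4 CPM. Neuroectoderm markers summed to 108 and 74.3 CPM in the knockdown libraries, against 57.9 and 53.0 CPM in the controls. Of the 4, 3 were higher in both knockdown libraries, beside the same 22.3% of all genes. Pax6 had 1.16 and 2.00 CPM in the knockdown libraries, against 2.49 and 4.29 CPM in the controls. Mesoderm markers, 3 in all, were low, at a summed 7.17 and 6.88 CPM in the knockdown libraries, against 10.3 and 7.36 CPM in the controls. Of these, 1 was lower in both knockdown libraries and 0 were higher. The part of cells of these types in the values below was not tested, and in bulk RNA fewer cells of a type and less RNA per cell cannot be told apart.

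Because the series' title links Cyrano to microRNA activity and Cyrano is known for a conserved site for miR-7, the members were searched for miR-7 sites. The mature sequences are shown with the seed, bases 2 to 8, in capitals; both forms have the same seed (RefSeq, GRCm38.p6).
miR-7a-5p: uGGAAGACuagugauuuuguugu
miR-7b-5p: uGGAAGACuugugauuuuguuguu
Sites were GTCTTCC or TCTTCCA on the transcript strand of the longest 3′ UTR in GENCODE M21, and GTCTTCCA, which holds both, counted once. Of the 61 members tested, 20 (32.8%) had a site, beside 26.2% of all tested genes with a searchable 3′ UTR. The sites below, with the matched bases in capitals, are those of Smarcd1, which with Chd5 held the most sites at 3 each, and of the central members Smarca4 and Hdac1.
Smarcd1 site 1 (chr15:99713276-99713303, plus strand, GRCm38): ggccatccctGTCTTCCtgtcccatgtc
Smarcd1 site 2 (chr15:99713472-99713499): gatgctttgaaTCTTCCAgggaagcctc
Smarcd1 site 3 (chr15:99713493-99713520): aagcctccgatTCTTCCAggtttgtcac
Smarca4 (chr9:21703076-21703103, plus strand): tacacatgcaaTCTTCCAcatttttagg
Hdac1 (chr4:129516192-129516219, minus strand): tatattgcctGTCTTCCcccaattctgt

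Members with and without a site had medians close to each other. Those 20 with a site had a median log2 fold change of -0.12 and the 41 without had -0.16, beside -0.04 and 0.01 for all tested genes with and without a site. Smarcd1, with 3 sites, had 166 and 124 CPM in the knockdown libraries, against 150 and 165 CPM in the controls, so that the groups overlapped (log2 fold change -0.12 ± 0.16, SE). None of the 4 members with an unadjusted p under 0.05 had a site. Members with a site also had longer 3′ UTRs, at a median of 2117 bases in the members with a site and 1322 bases in those without, and no difference between these groups was tested.

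No member passed the test. Of the 62 genes, 61 were tested, and Arid3c, at 10 and 3 counts in the knockdown libraries and 7 and 11 in the controls, was below the filter on low counts. The lowest edgeR adjusted p was 0.14, for Smarcd3. At an unadjusted p under 0.05 there were 4 members, 6.56% of those tested, where 11.6% of all genes passed. Mbd3 and Chd7 were higher (6.18% of all genes were) and Smarcd3 and Chd2 were lower (5.43% of all genes were). DESeq2 called Smarcd3 (adjusted p = 0.021) and no other member, where it called 1.03% of all genes, and limma-voom called no member and 0.0227% of all genes. Without control library 2 the count at an unadjusted p under 0.05 was 13 members, 11 of them lower, beside 14.3% of all genes in either direction.

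More members lay below 0 than above it, by small amounts. The log2 fold change was below 0 in 40 of 61 members (65.6%), beside 50.2% of all genes, and the median was -0.15, beside -0.002 over all genes. Both knockdown libraries lay above both controls in 12 members (19.7%, beside 22.3% of all genes) and below both controls in 17 (27.9%, beside 21.3%), so that the groups were apart in 47.5% of members, beside 43.5% of all genes. The change exceeded 0.5 on the log2 scale in Smarcd3, Hdac11 and Mbd3 among the genes tested. The median was -0.05 without control library 1 and -0.08 without knockdown library 2. The median log2 CPM of the members was 6.19 and 6.06 in the knockdown libraries and 6.34 and 6.23 in the controls.

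**Figure D1:**
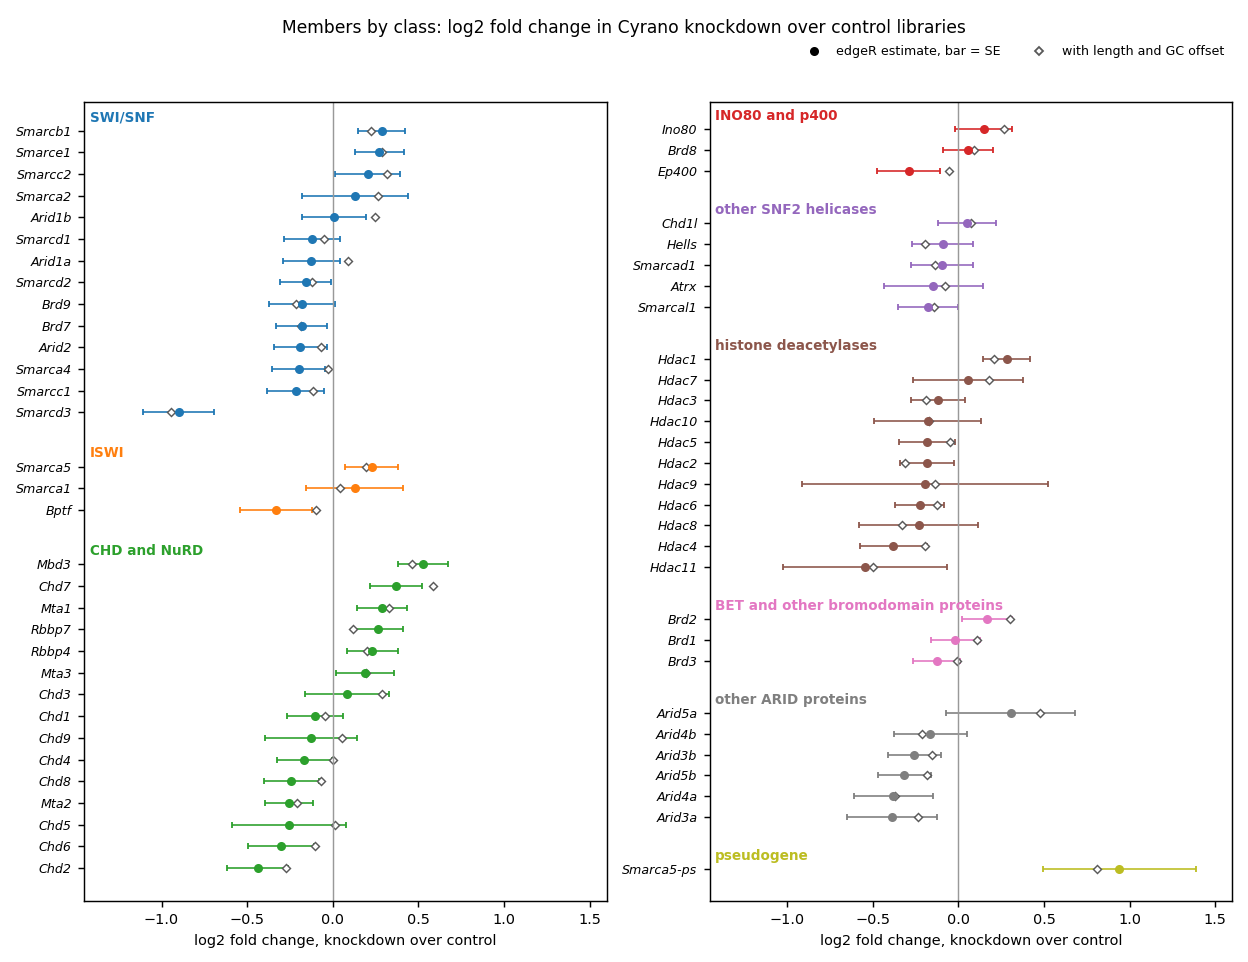
Log2 fold change, knockdown over control, of the tested members reported here on the horizontal axis, grouped by complex or family and ordered by size. Filled points with bars give the edgeR estimate and its SE from 2 libraries against 2, and open diamonds give the estimate with a length and GC offset. Smarcd3 at -0.90 lies farthest below 0 and, among the 61 genes, Mbd3 at 0.53 lies farthest above it.

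SWI/SNF subunits were spread around a median of -0.14, with 9 of 14 below 0. That median was -0.04 with an offset for transcript length and GC (described with the length data), -0.21 without knockdown library 1 and -0.002 without knockdown library 2. The catalytic subunit Smarca4 had 281 and 222 CPM in the knockdown libraries, against 302 and 275 CPM in the controls, and the groups overlapped (log2 fold change -0.20 ± 0.15, edgeR adjusted p = 0.66). Its paralog Smarca2, the alternative ATPase of differentiated cells, had 5.82 and 5.48 CPM in the knockdown libraries, against 5.35 and 4.98 CPM in the controls. Per kilobase of transcript, and averaged over the 4 libraries, Smarca4 was 46.3 times as abundant as Smarca2. The scaffold subunit Smarcc1 had 379 and 350 CPM in the knockdown libraries, against 490 and 358 CPM in the controls, a spread set mainly by control library 1. Smarcc2, its paralog, had 39.6 and 30.8 CPM in the knockdown libraries, against 31.5 and 29.6 CPM in the controls. Arid1a, the DNA-binding subunit of canonical BAF, had 395 and 304 CPM in the knockdown libraries, against 423 and 339 CPM in the controls, which overlap.

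The subunit that differed most was Smarcd3, also called BAF60c, a paralog best known for its role in heart and muscle development. It had 13.8 and 13.6 CPM in the knockdown libraries, against 23.3 and 27.9 CPM in the controls. Both knockdown libraries were low and close to each other, at a mean of 13.7 ± 0.131 CPM against 25.6 ± 3.22 CPM (SD, n = 2 each), 1.87-fold lower. The log2 fold change was -0.90 ± 0.21 (SE; unadjusted p = 0.00091 and adjusted p = 0.14 by edgeR's quasi-likelihood test), and it ran from -0.77 to -1.02 when a library was left out. In the reference annotation its exons share bases with Chpf2 on the opposite strand, which had 12.4 and 20.3 CPM in the knockdown libraries and 11.7 and 15.0 CPM in the controls. The strand setting of the counting is unknown from these sources, and reads of the pair may not be separable. The other paralogs differed less: Smarcd2 had 64.6 and 65.6 CPM in the knockdown libraries, against 70.2 and 74.9 CPM in the controls. Within the SMARCD family, the share of Smarcd3 in the CPM per kilobase was 9.75% and 11.3% in the knockdown libraries, against 15.9% and 17.2% in the controls.

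A pair of small core subunits went the other way without passing. Smarcb1, a core subunit that contacts the nucleosome, had 181 and 175 CPM in the knockdown libraries, against 148 and 144 CPM in the controls (log2 fold change 0.28 ± 0.14, edgeR adjusted p = 0.45). It was the most abundant SWI/SNF subunit per kilobase. Smarce1, which carries an HMG box, had 123 and 131 CPM in the knockdown libraries, against 103 and 107 CPM in the controls (0.27 ± 0.14, adjusted p = 0.48). In both genes the groups did not overlap. The subunits specific to the PBAF form, Arid2 at -0.19 ± 0.16 and Brd7 at -0.18 ± 0.15, and the non-canonical BAF subunit Brd9 at -0.18 ± 0.19, were close to each other on the log2 fold change scale.

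**Figure D2:**
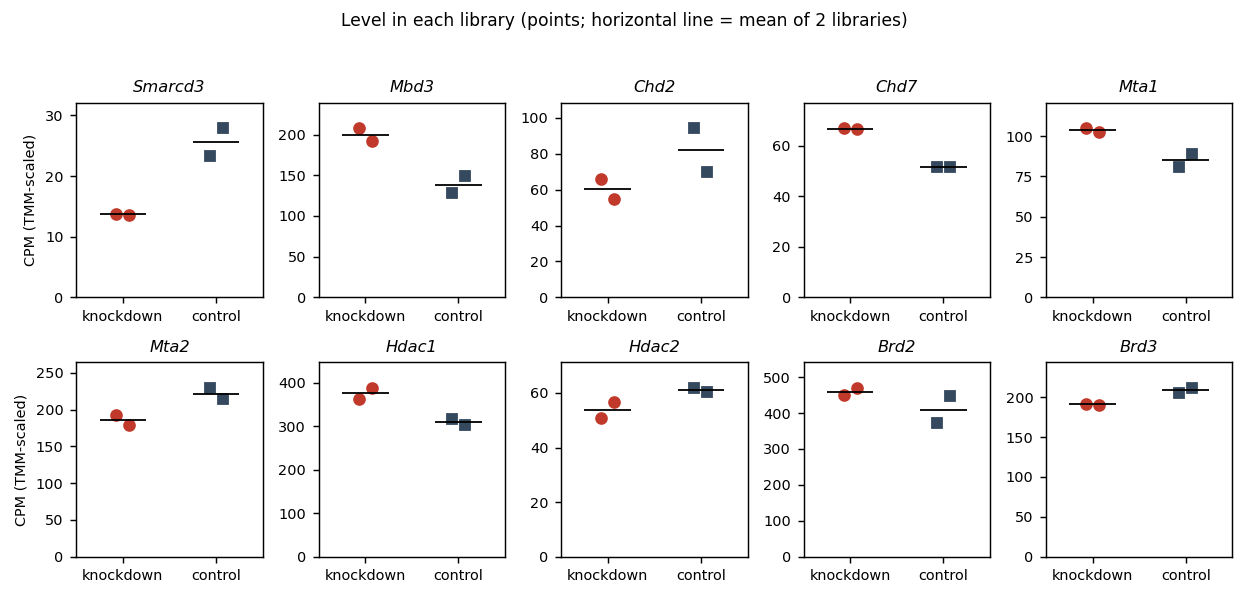
Level of 10 members in CPM scaled for library composition on the vertical axis, from 0, in the knockdown (circles, left) and control (squares, right) libraries; the line is the mean of 2 libraries. The 10 panels show only members whose groups do not overlap, which held for 47.5% of the 61 members tested and 43.5% of all genes. Among the 10 the gap is widest relative to the level in Smarcd3, at 13.8 and 13.6 CPM against 23.3 and 27.9 CPM.

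NuRD subunits within the naming rule lay more often above 0 than below it. Counting Hdac1 and Hdac2 with the CHD, MBD, MTA and RBBP subunits, 7 of 11 had a log2 fold change above 0 and the median was 0.19, with a range of 0.10 to 0.24 over 16 alternatives. Both knockdown libraries lay above both controls in 6 of the 11, but for Chd3 by only 10.84 against 10.83 CPM, and below both in 2 (54.5% and 18.2%, beside 22.3% and 21.3% of all genes). None passed over all genes. The difference between these 11 and the other members was not tested. Of 4 NuRD partners outside the naming rule, 3 (Gatad2a, Gatad2b and Mbd2) had a log2 fold change below 0. Cdk2ap1 was above 0 at 0.27 ± 0.14, and the median of the 4 was -0.18.

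Mbd3, the subunit that joins the deacetylase and remodeler modules of the complex, had 207 and 192 CPM in the knockdown libraries, against 128 and 149 CPM in the controls, 1.44-fold higher. Its log2 fold change was 0.53 ± 0.15 (SE; unadjusted p = 0.0032 and adjusted p = 0.19 by edgeR), and 0.42 to 0.64 with a library left out. The ATPase Chd4 was among the most abundant members, at 633 and 495 CPM in the knockdown libraries, against 683 and 583 CPM in the controls (log2 fold change -0.17 ± 0.16). Rbbp4, a histone-binding WD40 protein that NuRD has in common with Polycomb and chromatin assembly complexes, had 658 and 781 CPM in the knockdown libraries, against 646 and 580 CPM in the controls (0.23 ± 0.15). Rbbp7, its close paralog, had 346 and 365 CPM in the knockdown libraries, against 272 and 321 CPM in the controls (0.26 ± 0.15). Reads without a unique alignment were tallied apart from the gene counts, which can lower the counts of genes with close copies.

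The MTA scaffold subunits, which hold NuRD together, had opposite signs. Mta1 had 105 and 103 CPM in the knockdown libraries, against 81.0 and 89.0 CPM in the controls (log2 fold change 0.29 ± 0.14, edgeR adjusted p = 0.47). Mta2 had 192 and 179 CPM in the knockdown libraries, against 230 and 214 CPM in the controls (-0.25 ± 0.14, adjusted p = 0.50). Mta3 had 93.2 and 69.9 CPM in the knockdown libraries, against 76.2 and 66.9 CPM in the controls, and overlapped. Within the family, Mta2 made up 46.0% and 47.8% of the CPM per kilobase in the knockdown libraries, against 56.2% and 54.7% in the controls. Neither Mta1 nor Mta2 passed, and with 2 libraries against 2 an exact two-sided permutation test of such a share cannot go below p = 0.333. Shares within a family are tied, since a share that rises lowers others. In other families the shares of Smarca4, Smarcc1, Chd1 and Chd7 were also apart between the groups. Those of Arid1a, Chd4, Smarca5 and Rbbp4 overlapped.

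Outside NuRD, the CHD proteins had opposite members. Chd7, the CHARGE syndrome remodeler that binds enhancers in stem cells, had 66.7 and 66.6 CPM in the knockdown libraries, against 51.6 and 51.7 CPM in the controls, with little spread in either group. Its log2 fold change was 0.37 ± 0.15 (unadjusted p = 0.032, edgeR adjusted p = 0.37), and 0.59 with the length and GC offset (adjusted p = 0.15). Chd2 had 65.8 and 55.0 CPM in the knockdown libraries, against 94.0 and 70.0 CPM in the controls (-0.44 ± 0.18, unadjusted p = 0.028, adjusted p = 0.36). Without control library 1 the Chd2 value was -0.21. In the reference annotation Chd2 shares exon bases with 1810026B05Rik on the same strand, at 6.54 and 8.08 CPM in the knockdown libraries and 6.69 and 5.67 CPM in the controls. Chd1, which keeps stem cell chromatin open, had 83.1 and 77.9 CPM in the knockdown libraries, against 97.9 and 75.3 CPM in the controls, and overlapped. Chd6 (-0.30 ± 0.19), Chd8 (-0.24 ± 0.16) and Chd9 (-0.13 ± 0.27) had log2 fold changes below 0, and the whole class of 15 had a median of -0.11. That median was 0.05 with the length and GC offset, 0.15 without control library 1 and 0.04 without knockdown library 2.

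Histone deacetylases lay mostly below 0, in 9 of 11 genes (81.8%), with a median of -0.19. Hdac1, the most abundant per kilobase and a class I enzyme of NuRD, Sin3 and CoREST, was the deacetylase farthest above 0. It had 363 and 388 CPM in the knockdown libraries, against 316 and 302 CPM in the controls (log2 fold change 0.28 ± 0.14, edgeR adjusted p = 0.46). Hdac2, its paralog in the same complexes, had 50.8 and 56.7 CPM in the knockdown libraries, against 61.9 and 60.4 CPM in the controls (-0.19 ± 0.16, adjusted p = 0.68). Within class I, the share of Hdac1 in the CPM per kilobase was 78.7% and 79.1% in the knockdown libraries, against 73.1% and 74.0% in the controls. Neither gene passed, and their opposite signs were not tested as a difference.

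Among the other deacetylases, Hdac4, a class IIa enzyme that shuttles between cytoplasm and nucleus, had 28.3 and 21.8 CPM in the knockdown libraries, against 32.1 and 33.1 CPM in the controls (-0.38 ± 0.20, edgeR adjusted p = 0.48; -0.20 with the length and GC offset). Hdac6, the cytoplasmic class IIb enzyme that deacetylates tubulin, had 154 and 144 CPM in the knockdown libraries, against 167 and 183 CPM in the controls (-0.23 ± 0.14). Hdac5 at -0.18 ± 0.16 also had both knockdown libraries below both controls, so that the groups were apart and lower in Hdac2, Hdac4, Hdac5 and Hdac6, 36.4% of the 11, beside 21.3% of all genes. Hdac3, the enzyme of the NCoR corepressor, had 61.9 and 62.2 CPM in the knockdown libraries, against 73.1 and 61.6 CPM in the controls. Hdac9, at 15 counts in each knockdown library and 10 and 18 counts in the controls, and Hdac11 (-0.55 ± 0.48) had counts too low to show a difference of the size seen in the other deacetylases.

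**Figure D3:**
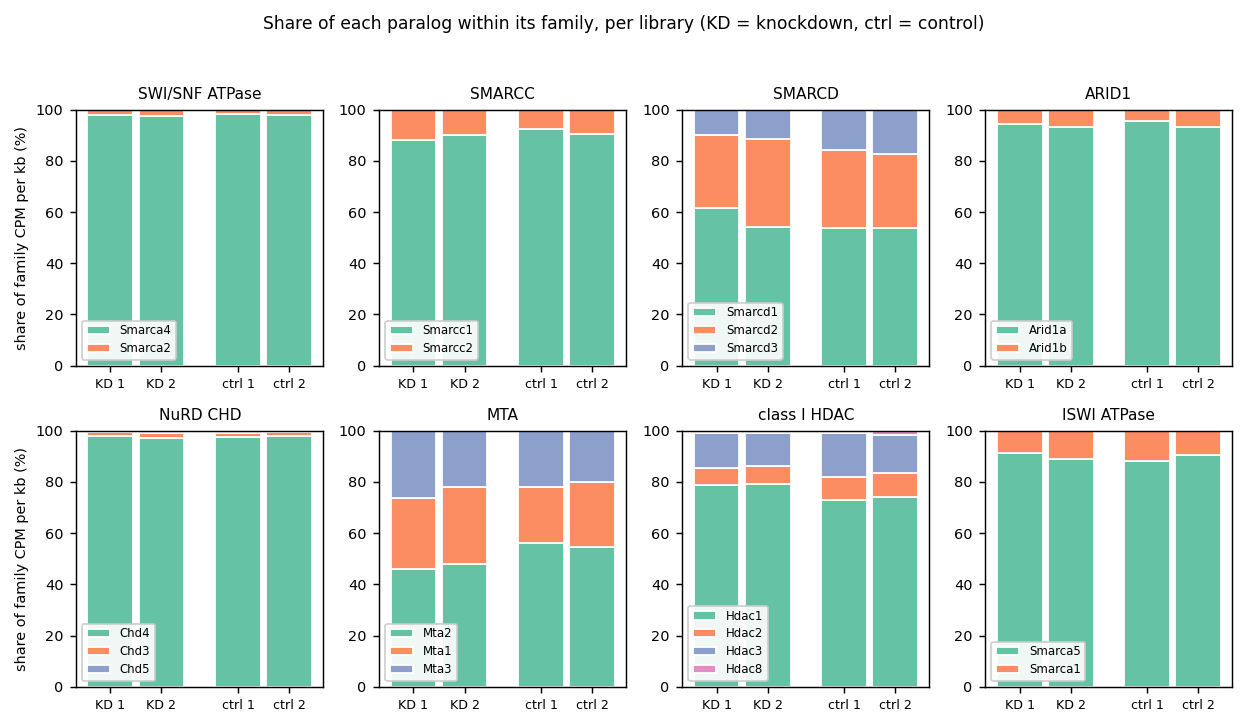
Share of each paralog in the summed CPM per kilobase of its family, in percent, for knockdown libraries (KD, left bars) and control libraries (ctrl, right bars). Smarcd3 takes 9.75% and 11.3% in the knockdown libraries against 15.9% and 17.2% in the controls, and Mta2 takes 46.0% and 47.8% against 56.2% and 54.7%.

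The BET proteins, which read acetylated histones and help release paused RNA polymerase, are given by Brd2 and Brd3, which had opposite signs. Brd2 had 449 and 470 CPM in the knockdown libraries, against 372 and 446 CPM in the controls (log2 fold change 0.17 ± 0.15, edgeR adjusted p = 0.70). Brd3 had 192 and 190 CPM in the knockdown libraries, against 206 and 212 CPM in the controls (-0.13 ± 0.14). The groups did not overlap in either gene, but neither difference passed. With the length and GC offset Brd2 was at 0.30 and Brd3 at -0.01. Brd1, a scaffold of histone acetyltransferase complexes, had a log2 fold change of -0.02 ± 0.14.

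No ISWI, INO80 or p400 gene passed. Smarca5 (SNF2H), the main ISWI ATPase, which spaces nucleosomes, had 146 and 147 CPM in the knockdown libraries, against 141 and 110 CPM in the controls (log2 fold change 0.23 ± 0.16, edgeR adjusted p = 0.60). The groups did not overlap, and the value was 0.06 without control library 2 and 0.42 without control library 1. Smarca1 (SNF2L) had 11.2 and 14.5 CPM in the knockdown libraries, against 14.7 and 8.84 CPM in the controls. Bptf, the largest NURF subunit, which reads H3K4 methylation, had 189 and 130 CPM in the knockdown libraries, against 237 and 164 CPM in the controls (-0.33 ± 0.21), so that libraries within a group differed more than the groups. Ep400 had 194 and 142 CPM in the knockdown libraries, against 233 and 177 CPM in the controls (-0.29 ± 0.18), with a like spread. For Bptf and Ep400 both libraries numbered 1 lay above both numbered 2, as in 18 of the 61 members. What the numbers mark is not given. With a replicate block the edgeR adjusted p was 0.11 for Bptf and 0.17 for Ep400. With the length and GC offset Bptf was at -0.10 and Ep400 at -0.05, and without control library 1 they were at -0.04 and -0.08. Ino80 had 92.6 and 76.4 CPM in the knockdown libraries, against 84.0 and 68.7 CPM in the controls (0.15 ± 0.16). Brd8, a bromodomain subunit of the TIP60-p400 complex, had 136 and 116 CPM in the knockdown libraries, against 125 and 118 CPM in the controls.

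The remaining SNF2 helicases had a median of -0.10 on the log2 fold change scale, and 4 of 5 were below 0. Hells (LSH), which aids DNA methylation, had 97.7 and 76.9 CPM in the knockdown libraries, against 107 and 79.6 CPM in the controls. Atrx, which deposits histone H3.3 at repeats together with Daxx, had 61.4 and 48.2 CPM in the knockdown libraries, against 80.8 and 40.6 CPM in the controls, and the controls enclosed the knockdown values. Smarcad1 had 129 and 130 CPM in the knockdown libraries, against 167 and 111 CPM in the controls. Smarcal1, an annealing helicase at stalled forks, had 32.3 and 36.7 CPM in the knockdown libraries, against 38.9 and 39.1 CPM in the controls (-0.18 ± 0.17). Without control library 1 the median of these 5 was 0.20, and without knockdown library 2 it was 0.02.

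ARID proteins outside SWI/SNF had a class median of -0.29, with 5 of 6 tested below 0. Arid5b, a DNA-binding partner of the demethylase Phf2, had 136 and 126 CPM in the knockdown libraries, against 181 and 145 CPM in the controls (log2 fold change -0.32 ± 0.15, edgeR adjusted p = 0.45), and was at -0.14 without control library 1. Arid3b had 72.7 and 61.6 CPM in the knockdown libraries, against 81.1 and 79.4 CPM in the controls (-0.26 ± 0.15). Arid4a, a subunit of Sin3 deacetylase complexes, had 20.2 and 16.9 CPM in the knockdown libraries, against 28.7 and 19.6 CPM in the controls (-0.38 ± 0.23), and was at -0.09 without control library 1 and -0.63 without control library 2. The groups were apart and lower in Arid3b, Arid4b and Arid5b, 50% of the 6 tested, beside 21.3% of all genes. The class median stayed between -0.38 and -0.14 in 16 alternatives, and none of its members passed. The members not described singly are Arid1b, Chd5, Chd1l, Hdac7, Hdac8, Hdac10, Arid3a and Arid5a. Their log2 fold changes lay between -0.39 and 0.31, and the groups overlapped in each.

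Partner subunits outside the naming rule also had no called gene: of 67 tested, 3 were higher (beside 6.18% of all genes) and 9 lower (beside 5.43%) at an unadjusted p under 0.05, and the median log2 fold change was -0.02. The deacetylase corepressors, 17 of the 67, held 4 of those 9. SWI/SNF partners held 2, ISWI partners 1, and INO80, SRCAP and TIP60-p400 partners 2. With the length and GC offset 4 partners were higher and 6 lower at that threshold. Beside them, 787 of 13199 genes were higher and 775 lower, 11.8% in either direction. Corepressors made up 2 of the 6 lower partners, and Ncor1, Sin3a and Baz2a (-0.23 with the offset) were no longer among the lower ones. Uchl5 (0.19 with the offset) was no longer among the 4 higher ones, which were Bcl7a (0.48), Baz1b (0.32), Sap18 and Daxx. Rcor1, a CoREST scaffold, had 11.2 and 9.76 CPM in the knockdown libraries, against 18.5 and 17.3 CPM in the controls (log2 fold change -0.77 ± 0.23, edgeR adjusted p = 0.21). Rcor2, its stem cell paralog, had 109 and 90.9 CPM in the knockdown libraries, against 134 and 142 CPM in the controls (-0.46 ± 0.15, adjusted p = 0.24). Ncor1 (-0.41 ± 0.16) and Sin3a (-0.36 ± 0.17), scaffolds for Hdac3 and for Hdac1 and Hdac2, were the other corepressors lower without the offset. Sap18, a small Sin3-associated protein, was higher, at 0.995 ± 0.26 (edgeR adjusted p = 0.18). Among SWI/SNF partners Pbrm1, the PBAF subunit with several bromodomains, was at -0.49 ± 0.19 and Gltscr1l, a non-canonical BAF subunit, at -0.56 ± 0.17 (adjusted p = 0.23). The ISWI partner Baz2a was at -0.42 ± 0.17. In the INO80, SRCAP and TIP60-p400 list Ino80d was at -0.62 ± 0.21, Nfrkb at -0.43 ± 0.16 and Uchl5, which was higher, at 0.48 ± 0.15. Daxx, the partner of Atrx, was at 0.35 ± 0.15.

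Transcript length moved with the fold changes. All tested genes were split into 5 groups of like size from short to long transcripts; the shortest had a median log2 fold change of 0.13 and the longest, of 5105 bases and more, had -0.14. The members were long, at a median of 5152 bases beside 3122 bases over all genes with a length, and 31 of 61 fell in the longest group, where 24 were below 0 and their median was -0.16. Across the 61 members, Spearman's rho between length and log2 fold change was -0.25, and 0.08 with an offset for length and GC content (across genes, which are not independent and come from the same libraries). Over all tested genes with a length it was -0.23, and -0.02 with the offset. The offset is fitted on length and GC in these same libraries, so that a weaker length trend with it was fixed in advance. With that offset the median of the members was -0.05, 26 were above 0 and 35 below (50.9% of all genes were below 0), and 5 members below 0 before it, Arid1a and Chd4 among them, lay above 0. At an unadjusted p under 0.05 there were then 5 members higher and 2 lower, beside 11.8% of all genes in either direction, and none passed, beside 0.197% of all genes. Smarcd3, at 1735 bases in the shortest group, was at -0.94 with the offset (edgeR adjusted p = 0.085), and Mbd3 at 0.46 (adjusted p = 0.15). The deacetylases kept a median of -0.17 with 9 of 11 below 0, and the median of the BET and other bromodomain proteins was 0.05 with the offset.

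**Figure D4:**
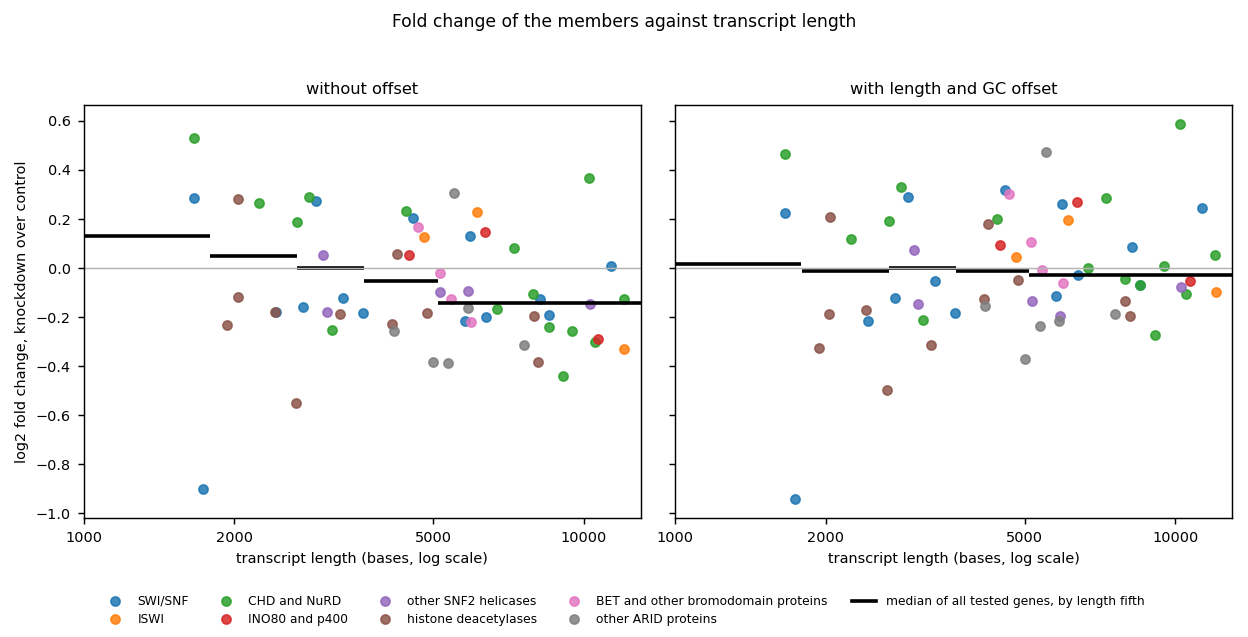
Log2 fold change, knockdown over control, of the 61 tested members against transcript length in bases (log axis), coloured by class, without (left) and with (right) the length and GC offset. Black lines give the median of all tested genes in each of 5 length groups, from 0.13 to -0.14 without the offset and from 0.02 to -0.03 with it. The offset is fitted on these same libraries, so that flatter lines on the right were fixed in advance. The 31 members of the longest group have a median of -0.16 on the left and -0.05 on the right.

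The copy Smarca5-ps had 76 and 74 counts in the knockdown libraries, against 38 and 24 counts in the controls, or 3.40 and 3.44 CPM against 2.31 and 1.27 CPM. Its log2 fold change was 0.94 ± 0.45 (edgeR adjusted p = 0.44). Since it resembles Smarca5 in sequence, the assignment of reads between them is uncertain, and at 0.835 CPM per kilobase on average it lay far below Smarca5.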

How the data were processed

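Poly(A) RNA of 2 knockdown and 2 control libraries was sequenced from dUTP strand-specific libraries, per the labels' protocols. The authors deposited raw read counts per gene symbol, 1 file per library, and build mm9 with the tools TopHat, HTSeq, bedtools and SAMtools stands in the submitters' processing notes. No source used here gives their versions, the annotation or the strand setting. Reads without a unique alignment, 28.7% and 26.1% of tallied reads in the knockdown libraries and 32.8% and 30.2% in the controls, reads outside genes (6.75% and 6.39%, against 7.61% and 6.43%) and ambiguous reads enter no gene count.

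Counts were tested over the whole table with edgeR 4.0.16 in R 4.3.3 (filterByExpr with a minimum count of 10, TMM, glmQLFit with robust estimation, glmQLFTest, two-sided, Benjamini-Hochberg over 13199 genes, threshold 0.05). SEs were taken from the log2 fold change and the F statistic. CPM uses TMM-scaled library sizes. Alternatives used DESeq2 1.42.0, limma 3.58.1, other factors and filters, left-out libraries, a replicate block and an offset fitted per library on transcript length and GC content (splines, 4 degrees of freedom each). Lengths and 3′ UTRs came from GENCODE M21 (GRCm38) by symbol, with 98.5% of symbols matched; UTRs of at least 50 bases were searched. The scripts were tested on simulated data.

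Groups came from the sample titles. The submitters call the libraries biological replicates, and p-values measure only the spread between them. Replicate pairs differed beyond sampling noise (chi-square per degree of freedom 20.5 between the knockdown and 25.4 between the control libraries). Values per library are given for the 3 members of each class with the lowest p, the most abundant per kilobase and a list of central members, 34 in all; 1 of them is not reported here. Smarcd1, Smarcd2, Mta1 to Mta3, Rbbp7, Hdac3, Hdac9, Smarca5-ps, Arid3c and the partners named were added for comparison of paralogs or after their values were seen. The members and lists were chosen with earlier results of these data known. The partner Srcap is not analysed here.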

Additional observations from a re-analysis of the deposited data

Results flagged for a closer look

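Reads that fell in more than 1 gene, which enter no gene count, made up a mean of 0.584% of tallied reads in the knockdown libraries and 0.486% in the controls, and each knockdown library lay above each control (0.568% and 0.6%, against 0.459% and 0.513%). An exact two-sided permutation test of 2 libraries against 2 cannot go below p = 0.333. Exon bases shared with another gene of the files were found for 6 members: Smarca2, Smarcd3, Rbbp4, Rbbp7, Chd2 and Hdac7. How much this bears on their counts was not tested.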

How the results depend on the processing

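Cyrano kept its direction in 16 alternatives and lost its call by limma-voom (-2.42) and without control library 1 or 2; with a library left out it ran from -2.79 to -2.08. Calls over all genes numbered 11, and 6 with RLE factors and with a CPM filter, 26 with upper-quartile factors, 50 with library size only, 332 with no filter, 136 by DESeq2, 3 by limma-voom, 4 without robust estimation, 26 with the length and GC offset, and 0 to 191 with a library left out. No member was called in the main comparison. DESeq2 called 1 of 61 (Smarcd3), beside 1.03% of all genes. With no filter 2 of 61 were called (Smarcd3 and Mbd3), beside 332 of 17005 genes. Members at an unadjusted p under 0.05 numbered 4 (beside 11.6% of all genes), and 9 with library size only (beside 12.7%), 7 with the offset (11.8%), and 3 to 13 with a library left out (7.25% to 14.3%). The member median of -0.15 was -0.053 with the offset and ran from -0.160 to -0.0504 with a library left out.

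The replicate numbers are in the labels but nothing there says what they mark, so the libraries were not treated as pairs. Same-numbered libraries deviated together across genes (correlation 0.244). With a replicate block edgeR called 955 of 13199 genes, and 3 of 61 members (Smarcd3, Mbd3 and Chd2). An unadjusted p under 0.05 was reached by 14 of the 61, beside 20.3% of all genes. With the block and the offset together 865 of 13199 genes were called, and 3 of 61 members (Smarcd3, Mbd3 and Chd7). An unadjusted p under 0.05 was then reached by 14 members, beside 21.7% of all genes, and the member median was -0.0558.

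Some named members with small differences turned sign, and the cause was not tested. With the offset Arid1a was at 0.0879 (0.0906 also with the block) and Chd4 at 0.00065. With a library left out, 10 ran across 0, from the lowest to the highest value: Smarca1 -0.20 to 0.54, Ino80 -0.0056 to 0.30, Brd8 -0.0664 to 0.17, Smarcad1 -0.36 to 0.23, Hells -0.29 to 0.13, Smarcc1 -0.43 to 0.0241, Arid1a -0.33 to 0.0554, Chd1 -0.28 to 0.0952, Chd4 -0.36 to 0.0052 and Atrx -0.56 to 0.43. Control library 1 gave the highest value of Smarca1, Ino80, Smarcad1, Hells, Smarcc1, Chd1 and Atrx when left out. The ISWI median was -0.20 without control library 2 and -0.07 without knockdown library 2, and that of INO80 and p400 was -0.07 without knockdown library 1. Members under 10 CPM, 10 of 63, have the widest errors.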
